A study of Mus musculus with 6 samples.

Results

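The transferrin receptor gene Tfrc and 8 other genes that take up, store, export or sense iron were followed in cultured mouse myoblasts of the C2C12 line. The members were chosen by gene name, after Tfrc had been seen to be lower on these arrays, and every probe set that the platform annotation gives to exactly 1 of them was taken. A probe set is the group of short array probes that reads 1 transcript. Of the 9 genes, 8 had at least 1 probe set of their own, 22 probe sets in all, out of 18193 genes named on the array. Ftl1, the ferritin light chain, had none: all 3 probe sets that list it also list other genes, so it has no values here.

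In these cells tetracycline is meant to switch on integrin alpha7, a laminin receptor subunit of muscle. All were undifferentiated and were grown for 36 h in DMEM with 20% fetal bovine serum, chick embryo extract, glutamine, penicillin, streptomycin and kanamycin. The induced group received 1 µg/ml tetracycline (3 arrays) and the noninduced group none (3 arrays). The series calls the 3 samples of a group biological replicates, the labels do not say whether the line is 1 clone or which species the construct came from, and no sample here is of cells without the construct given tetracycline, so the drug and the construct cannot be told apart.

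Several facts of the arrays precede the results. Itga7, the transcript of the construct's gene, gave 675, 727 and 676 on the arrays labelled induced and 811, 778 and 786 on the noninduced arrays, so it was not higher where the labels say that it was induced, and the probe set may not read the construct. Every direction below therefore rests on the labels. Myoblast markers were present, with summed signals of 5317 to 5734 on the arrays labelled induced and 5438 to 5567 on the noninduced arrays over 7 genes; Myod1, the myogenic master regulator, and Des, desmin, were among the bright ones, while Msc lay below the signal filter. Of the markers of differentiated muscle, 8 of 10 lay below the filter. Induced replicates 2 and 3 fell in a second fluidics run, and the other 4 arrays in the first. The runs were inferred from reuse of a fluidics module in order of hybridization time. All noninduced arrays were scanned first, so the order of scanning cannot be told apart from the groups.

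Cells import iron bound to transferrin through the transferrin receptor, which is taken into endosomes, where STEAP3 reduces the iron and the transporter DMT1 (Slc11a2) moves it into the cytosol. Ferritin, built of heavy (Fth1) and light (Ftl1) chains, stores iron, ferroportin (Slc40a1) is the exporter, and haem oxygenase 1 (Hmox1) frees iron from haem. The iron regulatory proteins IRP1 (Aco1) and IRP2 (Ireb2) bind hairpins in messenger RNAs when iron is scarce: in Tfrc they protect the transcript from decay, and in ferritin and ferroportin they block translation, which an array of transcripts does not read. Muscle uses iron in myoglobin and in the respiratory chain.

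Stretches of 30 bases around short motifs near the start sites of Tfrc, Fth1, Ftl1 and Steap3 are shown because Tfrc leads the results and its promoter is a known target of the hypoxia-inducible factors, whose core letters are ACGTG and GCGTG. The sequences are RefSeq's, build GRCm38.p6, and each window runs from 250 bases before to 50 after an annotated start. Capitals mark the motif, or its reverse complement CACGC where it lies on the other strand. Windows were found for 6 of the 9 genes, 11 windows in all (Tfrc, Fth1, Ftl1, Ireb2, Aco1 and Steap3).
Tfrc, GCGTG, chr16:32608767-32608796, plus strand: cgcagccaatcgCACGCgctctcccgacac
Tfrc, GCGTG, chr16:32608820-32608849, plus strand: ggctactccgcgCACGCactggctgcgcgc
Tfrc, ACGTG, chr16:32608882-32608911, plus strand: ctcggtaggtgtACGTGcggaaggaagtga
Tfrc, GCGTG, chr16:32608976-32609005, plus strand: tgccttcagaagGCGTGcggagcgcgggct
Tfrc, GCGTG, chr16:32609068-32609097, plus strand: atcgtggtcctcGCGTGgcgggcggaccag
Fth1, GCGTG, chr19:9982584-9982613, plus strand: gggtttgggcaaCACGCccacaggaagagg
Ftl1, GCGTG, chr7:45459916-45459945, minus strand: ccgtctccgcctCACGCcaccgccgattgg
Steap3, GCGTG, chr1:120258906-120258935, minus strand: gtcccagttaccCACGCcctagaagggccc

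ACGTG was found in the windows of Tfrc alone among the 6 genes, the same site in both of its windows, 2 bases before the upstream start and 228 before the downstream one. On both strands, ACGTG occurs in 19.6% of all 32851 windows and GCGTG in 32.4%, so neither is rare. CACGTG, which contains ACGTG (7.15% of all windows), TGACNNNGC (12.4%) and, on the transcribed strand, the loop letters of an iron-responsive hairpin (CAGTGN with a C 6 bases before it, 10.4%) were also looked for. None of these was found in any of the 11 windows. The windows reach only 50 bases into the transcript, and the untranslated regions, where such hairpins lie, were not available. Whether these transcripts carry the hairpins therefore cannot be read from this search.

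Among the 22520 probe sets tested across the array, 18 passed the threshold (limma, adjusted p under 0.05) as lower and 27 as higher on the arrays labelled induced. Of the 22 iron probe sets 21 were bright enough to be tested, and 1 of them passed, for Tfrc, against a background of 0.200% of all probe sets tested in either direction, 0.0799% lower and 0.120% higher; since the genes were proposed for the fall of Tfrc, nothing is read from that share. No member rose past the test in limma, and at an unadjusted p under 0.05 there were 4 member probe sets, all 4 lower and 3 of them for Tfrc. That is 19.05% of the 21, against 14.7% of all probe sets tested in either direction (3307), 7.26% lower and 7.42% higher. As 3 of the 4 are for Tfrc, which was chosen for its fall, nothing is read from that share either. The groups did not overlap for 4 of the 21, all 4 lower, a share of 19.05% against 20.3% of all probe sets tested in either direction 10.6% lower and 9.64% higher. The median log2 fold change was -0.12 over the 21, -0.02 over the 15 that are not for Tfrc and -0.01 over the whole table, on the log2(signal + 16) scale used for every change below.

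**Figure D1:**
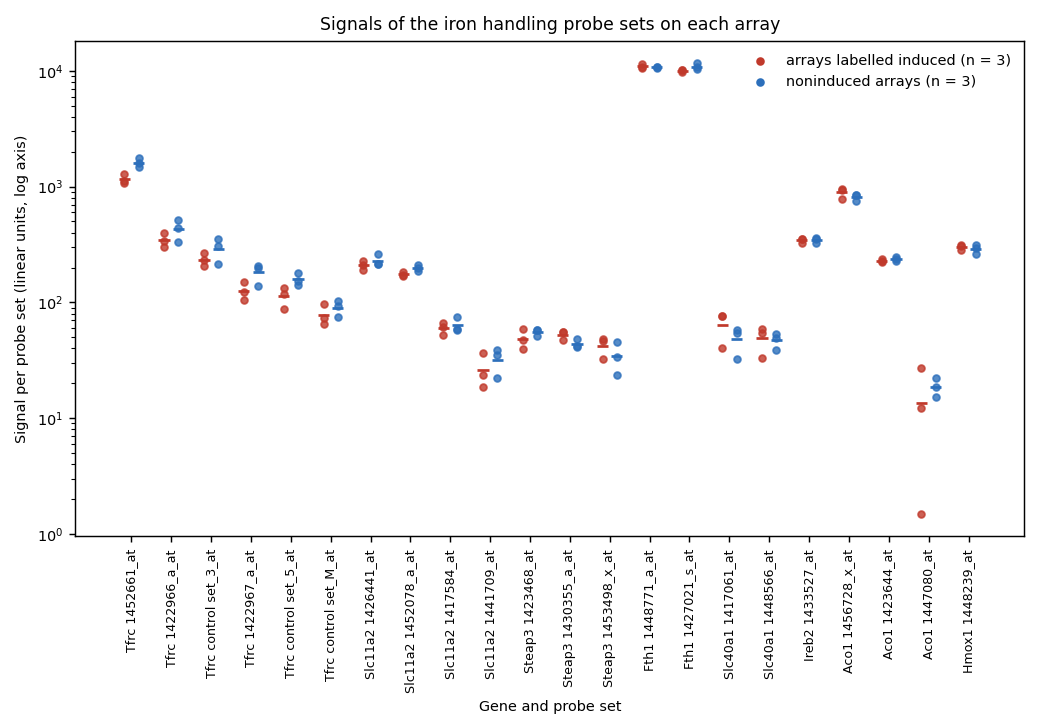
Signal of each of the 22 iron handling probe sets on each array (linear units on a log axis), by gene in the order of uptake, storage, export, regulation and haem breakdown. Points are arrays, short lines are group means; for Tfrc 1452661_at all 3 arrays labelled induced (1069 to 1281) lie below all 3 noninduced arrays (1473 to 1756), and the Fth1 probe sets are between 9769 and 11647 over both groups.

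Tfrc encodes the transferrin receptor, the port of entry for transferrin-bound iron. Its brightest probe set, 1452661_at, gave 1129, 1281 and 1069 on the arrays labelled induced, against 1473, 1607 and 1756 on the noninduced arrays. All arrays labelled induced were lower than all noninduced ones. The means were 1160 ± 109 and 1612 ± 141 (SD, n = 3 each), so Tfrc was at 72.2% of the noninduced level in the fit, a log2 fold change of -0.47 (SE 0.077, 95% interval -0.64 to -0.30). This value is what put Tfrc at the head of the set (limma adjusted p = 0.0316), and it is given as a description. In bulk RNA, fewer cells with the transcript and less of it per cell cannot be told apart.

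Its 5 other probe sets had the same sign, and none of them passed. The next brightest, 1422966_a_at, gave 303, 397 and 338 on the arrays labelled induced and 334, 443 and 517 on the noninduced arrays (log2 fold change -0.29, SE 0.136). There the groups overlapped, since noninduced replicate 1 lay below induced replicates 2 and 3. Probe set 1422967_a_at, made from the same sequence record, gave 105.3, 149.8 and 122 on the arrays labelled induced and 137, 207 and 199.9 on the noninduced arrays. Its change of -0.47 (SE 0.154) was as large as that of 1452661_at, with a wider spread and 1 overlapping array on each side.

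The array also carries 3 quality-control probe sets for this transcript, placed toward its 3′ end, its middle and its 5′ end. The 5′ one gave 88.3, 133 and 118 on the arrays labelled induced and 140.5, 153 and 180.2 on the noninduced arrays, with no overlap (log2 fold change -0.44, SE 0.140). The 3′ one gave 205, 266 and 231 against 215, 304 and 350 (-0.27, SE 0.148), and the middle one 73.8, 96.4 and 64.7 against 74.01, 92.6 and 102 (-0.17, SE 0.155), arrays labelled induced before noninduced ones in both. Both of these overlapped between the groups.

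The ratio of the 3′ to the 5′ signal of Tfrc, a measure of how complete the labelled RNA is, was 2.32, 2.00 and 1.96 on the arrays labelled induced and 1.53, 1.99 and 1.94 on the noninduced arrays. The groups overlapped, and noninduced replicate 1 stood lowest. The same ratio for the housekeeping gene Gapdh was 0.782, 0.777 and 0.761 against 0.788, 0.802 and 0.789, and for Actb, cytoplasmic actin, 1.12 to 1.14 against 1.0999 to 1.11. Neither of these overlapped between the groups, and their part in the fall of Tfrc was not tested.

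Noninduced replicate 1 was the lowest noninduced array for all 6 Tfrc probe sets, and induced replicate 2 was the highest array labelled induced for all 6. Across the 6 arrays the other Tfrc probe sets had Pearson correlations of 0.75 to 0.89 with 1452661_at, a description over arrays that share the group difference.

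When any 1 array was left out the sign of the Tfrc difference could not change, since the groups did not overlap. Its size was then -0.54 to -0.41, while the adjusted threshold was often missed. It was missed without noninduced replicate 2 (-0.47, limma adjusted p = 0.0990), noninduced replicate 3 (-0.41, 0.150), induced replicate 1 (-0.45, 0.148) or induced replicate 3 (-0.41, 0.0648). With the fluidics run as a block, a fit that rests on induced replicate 1, the value was -0.50 (adjusted p = 0.320).

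**Figure D2:**
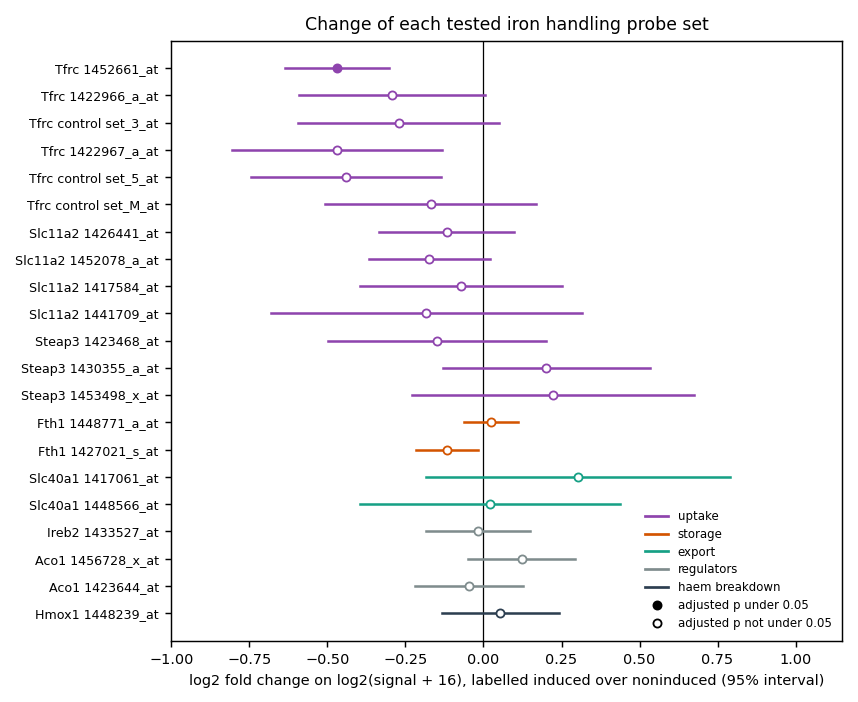
Log2 fold change of each of the 21 tested iron handling probe sets, arrays labelled induced over noninduced arrays, with the 95% interval of the limma fit. Colours give the role; the filled point passed the adjusted threshold. The 6 Tfrc points lie between -0.47 and -0.17, the 2 Fth1 points within 0.12 of 0, and the Slc40a1 intervals are wide.

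Slc11a2 encodes DMT1, which carries iron out of the endosome. Its brightest probe set, 1426441_at, gave 192, 228 and 211 on the arrays labelled induced and 216, 214 and 259.7 on the noninduced arrays. The groups overlapped, and the log2 fold change was -0.12 (SE 0.0995, limma adjusted p = 0.624). Probe set 1452078_a_at, made from the same record, gave 170.2, 182 and 171 on the arrays labelled induced and 186, 199.6 and 212 on the noninduced arrays.

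That probe set did not overlap between the groups, but its change of -0.17 (SE 0.0889, 95% interval -0.37 to 0.02) did not pass (limma adjusted p = 0.392). Its Pearson correlation with Tfrc 1452661_at over the 6 arrays was 0.97, above those of the other Tfrc probe sets. The correlation was 0.70 for the brightest Slc11a2 probe set, 0.53 for 1417584_at and 0.50 for 1441709_at. Across the array 402 tested probe sets exceeded 0.9, and such values share the group difference. The dimmer Slc11a2 probe sets 1417584_at and 1441709_at gave -0.07 and -0.18 with intervals that span 0. The first of these was 0.021 when arrays were centred on their medians, so all 4 had a negative sign in the reported fit but not under that scaling.

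Steap3 encodes the endosomal ferrireductase. All 3 of its probe sets were dim, with signals of 23.6 to 59.04 over all arrays. The brightest, 1423468_at, gave 39.7, 59.04 and 47.4 on the arrays labelled induced and 57.5, 57.6 and 50.7 on the noninduced arrays (log2 fold change -0.15, SE 0.160). The others had the opposite sign, at 0.20 (1430355_a_at) and 0.22 (1453498_x_at). None passed and the groups overlapped for each, so no direction can be given for Steap3.

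Fth1, the ferritin heavy chain that oxidises iron for storage, was the brightest member. Probe set 1448771_a_at gave 11487, 10797 and 10598 on the arrays labelled induced and 10839, 10914 and 10558 on the noninduced arrays. The groups overlapped, and the log2 fold change was 0.02 with a 95% interval from -0.06 to 0.11 (SE 0.0397). The second probe set, 1427021_s_at, gave 10185, 9769 and 10138 on the arrays labelled induced and 10333, 11647 and 10708 on the noninduced arrays.

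Those groups did not overlap, and the change was -0.12 (SE 0.0458, 95% interval -0.22 to -0.02, limma adjusted p = 0.269), which did not pass. The Fth1 probe sets thus had opposite signs, and both intervals leave out a change as large as that of Tfrc 1452661_at. Names ending in s_at or x_at mark probe sets that can read related sequences, and ferritin genes have processed copies in the genome, so how much of this signal is Fth1 alone was not tested.

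Because each array was scaled as a whole, Tfrc was also set against Fth1 within each array, where the scaling cancels. Each probe set has a brightness of its own, so only the difference between arrays can be read, not the ratio itself. The log2 ratio of the brightest Tfrc to the brightest Fth1 probe set was -3.33, -3.06 and -3.29 on the arrays labelled induced and -2.87, -2.75 and -2.58 on the noninduced arrays. The groups did not overlap, and the means differed by -0.49 (SDs of 0.146 and 0.145, n = 3 each).

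With the other Fth1 probe set the difference was -0.35, again without overlap, and with the mean over all probe sets of each gene it was -0.31, where the groups overlapped. Since Tfrc was chosen for its fall, these ratios are a description and carry no test.

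Slc40a1 encodes ferroportin, the iron exporter. It was dim: 1417061_at gave 75.5, 40.7 and 75.9 on the arrays labelled induced and 54.7, 58.2 and 32.3 on the noninduced arrays. Induced replicates 1 and 3 were high and noninduced replicate 3 low, with overlapping groups. The log2 fold change of 0.30 did not pass (SE 0.223, limma adjusted p = 0.564), and its 95% interval ran from -0.18 to 0.79.

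The second Slc40a1 probe set, 1448566_at, gave 58.99, 54.3 and 33.4 on the arrays labelled induced and 38.7, 53.3 and 49.6 on the noninduced arrays (0.02, SE 0.191). Here induced replicate 3 was the lowest array of all 6 while it was the highest in the first probe set. Within arrays, Slc40a1 over Tfrc differed by 0.77 between the group means, a ratio added after the values were seen, and induced replicate 2 lay within the noninduced arrays.

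**Figure D3:**
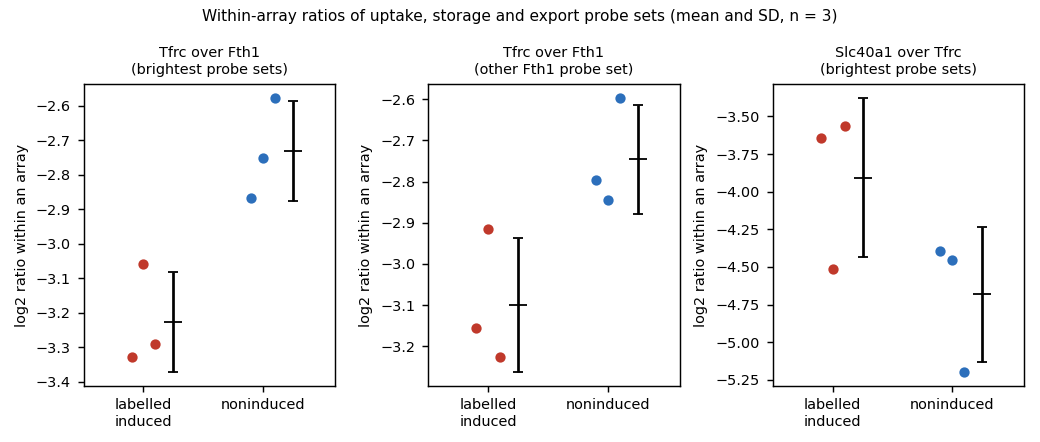
Log2 ratio within each array of the brightest Tfrc to the brightest Fth1 probe set (left), of the brightest Tfrc to the other Fth1 probe set (middle) and of the brightest Slc40a1 to the brightest Tfrc probe set (right). Points are arrays, bars are the mean ± SD (n = 3); on the left the arrays labelled induced lie between -3.33 and -3.06 and the noninduced arrays between -2.87 and -2.58, and on the right the groups overlap.

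The iron regulatory proteins showed no change past the test. Ireb2, IRP2, had 1 probe set, 1433527_at, with 354, 350.4 and 323 on the arrays labelled induced and 323, 363 and 356 on the noninduced arrays. The groups covered nearly the same range (log2 fold change -0.02, 95% interval -0.18 to 0.15).

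For Aco1, IRP1, which is also the cytosolic aconitase, the brightest probe set 1456728_x_at gave 936, 954 and 783 on the arrays labelled induced and 840.4, 759 and 845 on the noninduced arrays. Its change of 0.12 (SE 0.0787) did not pass. Probe set 1423644_at gave 236, 221 and 229 against 226, 245 and 238, with -0.05 (SE 0.0794) and overlapping groups. The third, 1447080_at, lay below the filter, at 12.2, 1.49 and 27.1 against 22.4, 15.1 and 18.7, and was not tested.

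Hmox1, the inducible haem oxygenase that frees iron from haem and a common stress gene, gave 308, 312 and 284 on the arrays labelled induced and 316, 261 and 294 on the noninduced arrays with its single probe set, 1448239_at. The groups overlapped, with a log2 fold change of 0.05 (SE 0.0859, and -0.13 to 0.24 as the 95% interval). By role, 6 of the 13 tested uptake probe sets are for Tfrc, among them the only call. The 7 others, for Slc11a2 and Steap3, had 5 negative signs and a median of -0.12, and 52.6% of all probe sets tested had a negative sign. Storage, export, regulators and haem breakdown had no call among 2, 2, 3 and 1 tested probe sets, at medians of -0.05, 0.16, -0.02 and 0.05. At an unadjusted p under 0.05 there was 1 among the 15 tested probe sets that are not for Tfrc, the Fth1 probe set 1427021_s_at.

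Other genes of iron and haem metabolism were then read from 7 lists, with 1 probe set a gene. Of 75 genes with a probe set of their own, 60 were bright enough to be tested. Hspa9 rose, none fell in limma, and 59 did not pass; at an unadjusted p under 0.05 there were 9 higher and 4 lower. Those 13 are 21.7% of the 60 genes, and the share over all probe sets tested was 14.7%; the counts of single lists below are to be read against it too. The median log2 fold change was 0.02, with 35 positive and 25 negative.

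Hspa9, mortalin, is a mitochondrial chaperone that hands iron-sulphur clusters on and imports many other proteins. Its brightest probe set, 1418504_at, gave 3872, 4000.2 and 3843 on the arrays labelled induced and 3002, 3173 and 3117 on the noninduced arrays. The groups did not overlap, and the log2 fold change was 0.33 (SE 0.0427, limma adjusted p = 0.0151). Its 4 other probe sets were at 0.16 to 0.30 and did not pass. The change stayed at 0.31 to 0.35 when any 1 array was left out, and at 0.32 with the fluidics run as a block. The call was lost without noninduced replicate 2 (limma adjusted p = 0.0550), noninduced replicate 3 (0.0644), induced replicate 1 (0.0711) or induced replicate 2 (0.0619), and with that block (0.256).

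The remaining 19 genes of mitochondrial iron and iron-sulphur cluster assembly did not pass (median over 20 genes 0.00). Nubp2, a cytosolic scaffold of cluster assembly, gave 421, 473 and 469 on the arrays labelled induced and 588, 558 and 619.9 on the noninduced arrays. These groups did not overlap, and the change of -0.36 lay just outside the threshold (SE 0.0711, limma adjusted p = 0.0649). Glrx5, a glutaredoxin that carries clusters, was at -0.04.

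Uptake and endosomal release beyond the members had no call among 8 tested genes (median 0.00; 3 higher and 0 lower at an unadjusted p under 0.05). The ferrireductase gene Steap2 was at 0.19, the exocyst subunit gene Exoc6 at 0.22, the second transferrin receptor gene Tfr2 at -0.22 and the endosomal sorting gene Snx3 at -0.03. Storage and delivery to ferritin had none among 3 (1 higher at an unadjusted p under 0.05): the iron chaperones Pcbp2 and Pcbp1 were at 0.09 and -0.07 and Ncoa4, the receptor for ferritin breakdown, at 0.08.

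Export and hepcidin signalling had none among 5 tested genes, all 5 with a positive sign (median 0.22; 2 higher at an unadjusted p under 0.05). The named ones belong to BMP signalling, which many cells use apart from iron: Neo1, a co-receptor, was at 0.31, Smad7, an inhibitor, at 0.22 and Id1, a target, at 0.12. Hepcidin itself (Hamp, Hamp2), Heph and Bmp6 lay below the filter. The median was 0.14 without noninduced replicate 2 and 0.10 for the single array labelled induced of the first fluidics run.

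In the control of the regulatory proteins, Fbxl5, the ubiquitin ligase subunit that removes IRP2 when iron is plentiful, was at 0.23, its partners Skp1 and Cul1 at -0.15 and 0.00, and Cdc14a at 0.23, with none of 5 past the test. Haem synthesis had none among 12 genes (median 0.04): Cpox, coproporphyrinogen oxidase, was at 0.40, Uros at -0.29, Alad at 0.04 and the mitochondrial carrier Slc25a39 at 0.02. Haem breakdown and transport had none among 7 (median -0.02). Hmox2 was at -0.06, Blvra, biliverdin reductase, at -0.16, the haem transporter gene Slc48a1 at 0.12 and Slc46a1 at -0.12. At an unadjusted p under 0.05 there were 1 higher and 1 lower gene in the first of these lists, 1 and 1 in haem synthesis and 0 in haem breakdown and transport.

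**Figure D4:**
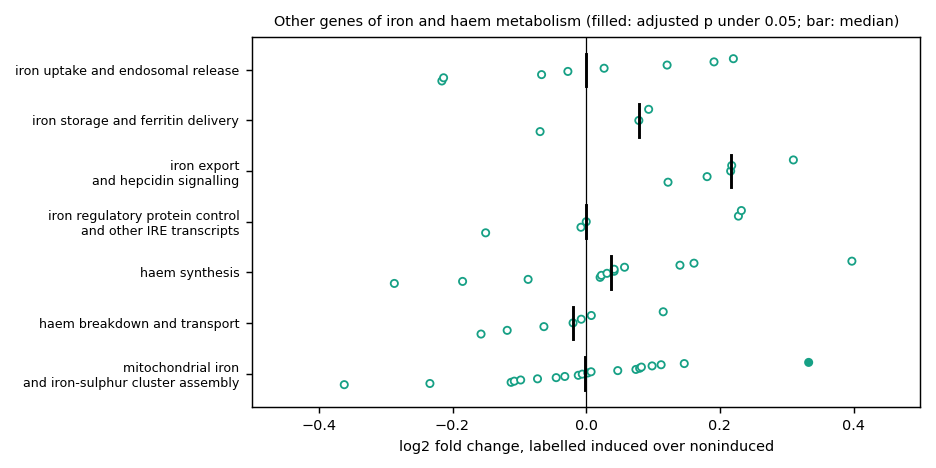
Log2 fold change of the 60 tested genes of 7 lists of iron and haem metabolism, arrays labelled induced over noninduced arrays, 1 point a gene. Black bars are list medians and the filled point, Hspa9 at 0.33, passed the adjusted threshold.

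Markers of erythroid cells and macrophages, which handle much of the body's iron, gave little signal in these cultures. Over 6 erythroid markers the summed signal was 75.3 to 117 on the arrays labelled induced and 97.8 to 165 on the noninduced arrays, and 5 of the 6 lay below the filter, the globin gene Hba-a1 among them. Over 8 macrophage markers it was 134 to 160.6 on the arrays labelled induced and 161.05 to 191 on the noninduced arrays, with 5 below the filter. These sums nearly met but did not overlap, and their part in the lower Tfrc signal was not tested. The 3 tested macrophage markers, Csf1r, Adgre1 and Cd68, were at -0.26, -0.25 and -0.03, each with overlapping groups. Cd163, Aif1, Itgam and Ptprc were among the markers below the filter. The median signal of a whole array was also lower on the arrays labelled induced (22.9 to 24.9) than on the noninduced arrays (24.99 to 27.7). Markers of differentiated muscle summed to 292 to 328 and 301 to 335 in the same order over 10 genes. Single markers separated the groups where the sums did not: Acta1, skeletal actin, was at 184 to 203 on the arrays labelled induced and 133 to 177 on the noninduced arrays (log2 fold change 0.25, limma adjusted p = 0.310). Myod1 was at 691 to 747 on the arrays labelled induced and 749.9 to 857 on the noninduced arrays (-0.17, limma adjusted p = 0.261). Neither overlapped between the groups, as for 20.3% of all probe sets tested, and neither passed. Their lists did not move as a whole. Of the 6 tested myoblast markers 4 had a positive sign and 2, Myod1 and Cdh15, a negative one. The other tested marker of differentiated muscle, Mylpf, was at -0.07. The part of Acta1 and Myod1 in the lower Tfrc signal was not tested.

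The genes whose pattern over the 6 arrays was most like that of Tfrc 1452661_at, by Pearson correlation, were Naa25 (r = 0.996), Rbm39 (0.995), Tnfrsf23 (0.991), Errfi1 (0.989) and Kif17 (0.988). With 6 arrays in 2 groups such values are easily high: 402 of the tested probe sets, 1.79%, exceeded 0.9. Errfi1, an inhibitor of the EGF receptor, gave 622, 717 and 588 on the arrays labelled induced and 760.4, 893 and 934 on the noninduced arrays. The change of -0.42 did not pass (limma adjusted p = 0.0819). The other 4 changes were -0.23, -0.40, -0.24 and -0.53, none past the test. Each gene was read by its probe set most like Tfrc 1452661_at. Those of Rbm39, Tnfrsf23 and Kif17 were dim, with noninduced means of 66.2, 73.9 and 32.3.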

How the data were processed

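Each of 6 total RNA samples was made into biotinylated RNA and read on an Affymetrix mouse array of its own, per the labels' protocols. The authors deposited 1 intensity per probe set, a linear signal computed in GCOS 1.1.1 (named in the submitters' processing notes); its settings, detection calls and probe sequences were not used here. After trimming 2% of values from both ends, each array averaged 150.001, so a value is relative to its whole array. The deposited instrument records (unit other) gave the fluidics module and the hybridization and scan times, per the file headers. Scan order was taken from these, and the fluidics run was inferred from reuse of a module.

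Of 64 control probe sets, all but 3 were set aside; the 3 annotated to Tfrc were kept, which left 45040. Genes were named from probe sets with 1 gene in the platform annotation. Probe sets with a mean signal above the median (23.4) were tested on log2(signal + 16) with limma 3.58.1 in R 4.3.3 (trended eBayes; adjusted by Benjamini-Hochberg over all 22520, threshold 0.05). The p-values measure the spread between 3 samples a group, whose small number limits precision. The steps were tested on simulated data. The members and lists were chosen with earlier results of these data known. All member probe sets are named; of each list, genes past the test, the 2 largest changes and the 2 brightest; and the 5 genes most like Tfrc. The ratio of Tfrc to ferritin was to include Ftl1, which has no probe set of its own. Alternatives were 2 other scalings, other filters, pseudocounts and moderation, blocks for replicate number or fluidics run, each array left out in turn and a threshold of 0.10; the first fluidics run alone, setting all control probe sets aside and the other Fth1 probe set in the ratio were added after the data were seen.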

Additional observations from a re-analysis of the deposited data

How the results depend on the processing

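The 45 calls over all probe sets became 306 after median centring (294 higher), 1 with no filter, 102 with a filter at the 75th percentile, 74 with robust moderation, 86 with array weights, 2 in an unmoderated test and 219 at a threshold of 0.10. In limma there were 0 with no variance trend (2817 at an unadjusted p under 0.05), with a block for the fluidics run (1924) and in the first run alone (1975). When 1 array was left out there were 0 to 50, with 0 when induced replicate 1 was missing (2598 at an unadjusted p under 0.05), 1 for noninduced replicate 2, 8 for noninduced replicate 3 and 11 for induced replicate 2. The single member call became 0 with no filter, no variance trend, an unmoderated test, either block or the first run alone, and was 0 or 1 when 1 array was left out. The log2 fold change of Tfrc stayed at -0.47 with no filter (limma adjusted p = 0.141), no variance trend (0.293), an unmoderated test (0.302) and the replicate block (0.0932). It was -0.50 with the run block and in the first run alone, and -0.38 after median centring, where it passed (limma adjusted p = 0.0439). When 1 array was left out it was -0.54 to -0.41. Since the groups did not overlap, leaving out 1 array could not change its sign. The Tfrc to Fth1 difference was -0.31 with the mean of the probe sets of each gene and -0.58 to -0.42 when 1 array was left out. The labels do not say whether replicate numbers pair the samples. Deviations of same-numbered arrays had correlations of 0.013, -0.063 and -0.0088, which cannot show how the cultures were made. The replicate block left 5 calls. Hspa9 lost its call with that block (adjusted p = 0.0711), with no filter (0.0575), with no variance trend (0.293) and in an unmoderated test (0.225).

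Median centring, under which the median of all tested probe sets was 0.08 in place of -0.01, reversed the signs of Slc11a2 1417584_at (0.021), Ireb2 (0.075), Aco1 1423644_at (0.048), Snx3 (0.0659), Pcbp1 (0.024), Hmox2 (0.0301) and Glrx5 (0.048), and Neo1 passed there (0.40, adjusted p = 0.0485). Small changes also took both signs when 1 array was left out: Slc11a2 1417584_at (-0.129 to 0.026), Fth1 1448771_a_at (-0.0097 to 0.048), Slc40a1 1448566_at (-0.094 to 0.208), Ireb2 (-0.067 to 0.022), Hmox1 (-0.016 to 0.113), Ncoa4 (-0.016 to 0.136), Slc25a39 (-0.0069 to 0.045) and Cul1 (-0.031 to 0.027). With the run block and in the first run alone Ireb2 was at 0.029, Tfr2 at 0.045 and Cul1 at -0.049, and Cul1 was at -0.00624 after quantile normalization. Nubp2 passed with a filter at the 75th percentile (adjusted p = 0.0484) and with array weights (0.0459). The causes were not tested. Signals near the filter limit what Steap3 and Slc40a1 can show.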
